A study of Homo sapiens with 12 samples.

Results

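The 40 genes described here are those of glycolysis and of the response to low oxygen, followed in PC3, an established cell line from a human prostate cancer. They were taken as a list of gene symbols that was chosen with earlier results of these data known, so counts over it are descriptions. Of these, 23 stand for glucose uptake, glycolysis and the fate of pyruvate. The other 17 are the subunits of hypoxia-inducible factor (HIF) and other genes that HIF is known to induce. All 40 were among the 43613 genes counted, and 39 passed the filter on low counts. The one that did not was SLC2A3, a glucose transporter of neurons and some tumours, at 0 to 0.306 counts-per-million (CPM) in the 12 libraries.

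RNA was sequenced in 4 groups of 3 libraries. BLANK cells received PBS, AgNPs cells received silver nanoparticles, DOC cells received an agent that is named only by this abbreviation, and COM cells received both agents. Dose, exposure time, batch and oxygen level are not given in the sources used here. They do not say that replicates were separate cultures, so p-values measure only the spread between these libraries. PC3 stands for one tumour, and a cell line in culture carries no vessels or stroma.

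Glycolysis splits glucose into pyruvate in the cytosol, and lactate dehydrogenase then turns pyruvate into lactate, which monocarboxylate transporters export. HIF is a pair of proteins of which the alpha subunit, encoded by HIF1A or EPAS1, is hydroxylated by the EGLN enzymes and destroyed when oxygen is present. When it is stable it binds a short core sequence near its targets, and these include most glycolytic enzymes, VEGFA, ANGPTL4, CA9 and EGLN3. Since that control acts on the protein, HIF1A mRNA is not a measure of HIF activity.

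The promoters of the members that moved most after AgNPs are shown first, because they let the HIF core be looked for in genes that went opposite ways. They are the 250 bases before the RefSeq start site on GRCh38.p14, printed 5′ to 3′ on the gene's strand. ANGPTL4 (chr19:8363905-8364154, plus strand) and EGLN3 (chr14:33951075-33951324, minus strand) were the 2 with the largest rise among members with a promoter entry. SLC16A3 (chr17:82228185-82228434, plus strand, the first listed of its start sites) and PFKL (chr21:44299803-44300052, plus strand) were the 2 with the largest fall. Capitals mark ACGTG or GCGTG on either strand.
ANGPTL4: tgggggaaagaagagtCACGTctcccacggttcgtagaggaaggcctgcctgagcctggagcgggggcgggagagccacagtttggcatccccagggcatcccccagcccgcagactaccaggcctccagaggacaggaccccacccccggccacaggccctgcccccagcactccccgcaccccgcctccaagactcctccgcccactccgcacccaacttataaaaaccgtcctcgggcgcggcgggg
EGLN3: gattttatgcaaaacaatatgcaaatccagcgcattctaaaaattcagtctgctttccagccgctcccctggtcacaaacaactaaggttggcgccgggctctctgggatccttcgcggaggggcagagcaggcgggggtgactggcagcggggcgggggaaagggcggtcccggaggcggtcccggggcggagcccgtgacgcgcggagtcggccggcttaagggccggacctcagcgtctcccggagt
SLC16A3: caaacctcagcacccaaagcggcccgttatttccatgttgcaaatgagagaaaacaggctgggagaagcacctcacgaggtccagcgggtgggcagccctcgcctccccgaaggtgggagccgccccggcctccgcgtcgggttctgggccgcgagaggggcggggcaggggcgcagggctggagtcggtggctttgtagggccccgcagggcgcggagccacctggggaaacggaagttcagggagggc
PFKL: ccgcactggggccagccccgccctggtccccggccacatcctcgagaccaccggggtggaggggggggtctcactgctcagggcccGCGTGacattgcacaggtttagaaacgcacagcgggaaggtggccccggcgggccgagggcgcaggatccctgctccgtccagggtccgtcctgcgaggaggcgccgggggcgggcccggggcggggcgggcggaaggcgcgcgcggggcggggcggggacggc
ANGPTL4 held 1 match, beginning at base -234 from the start site and read on the opposite strand, and PFKL held 1 at base -164. EGLN3 and SLC16A3 held no match, which says only that these letters are not in this window. VEGFA, SLC2A3, BNIP3L and NDRG1 had no promoter entry.

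Over the 36 members with an entry, windows of 300 bases (250 before and 50 after the start site) were searched for both motifs on both strands. At least 1 match was present in 15 of 22 glycolysis promoters (68.2%) and 12 of 14 hypoxia promoters (85.7%). The same search matched 60.2% of the 12953 promoters of all genes tested and 48.4% of all 27305 promoters. ACGTG was in 9 of the 22 glycolysis promoters and 7 of the 14 hypoxia promoters, against 25.5% over all genes tested. GCGTG was in 11 of 22, 6 of 14 and 48.0%. CACGTG, an E-box that contains ACGTG, was in 13.6%, 21.4% and 9.45%. LDHA, whose level fell, held 5 matches to ACGTG. It held CACGTG 2 times, and each CACGTG counts as 2 matches because it reads the same on both strands. A match is a description of the sequence and not a binding site.

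Depth differed between the groups, from 22573481 to 22769479 counts in BLANK, 18603100 to 19421873 in DOC, 13049868 to 13362290 in AgNPs and 10996446 to 11069928 in COM. BLANK replicate 1 and DOC replicate 1 stood somewhat apart from the other libraries of their groups, with chi-square per degree of freedom of 3.50 to 3.75 and 4.49 to 4.81 against them, beside 1.84 and 1.72 between the other libraries of each group. HOXB13, a prostate lineage gene, was at 371 to 373 CPM in BLANK and 196 to 212 CPM in COM. KRT8, a keratin, went the other way, from 155 to 166 CPM in BLANK to 175 to 196 CPM in COM. Of the 5 epithelial and prostate markers, 1 was higher in COM, 3 were lower and 1 did not pass (edgeR, adjusted p below 0.05). Over all genes tested 25.1% were higher and 24.5% lower. The summed level of 5 epithelial and prostate markers was 777 to 790 CPM in BLANK, 736 to 742 in AgNPs, 657 to 711 in DOC and 598 to 635 in COM. Fibroblast markers summed to 115 to 127 CPM in BLANK, 95.7 to 107.1 in AgNPs, 115 to 129 in DOC and 83.8 to 91.1 in COM, most of it from the collagen gene COL1A2, with DCN and LUM at 0 to 0.091 CPM. Immune markers summed to 41.4 to 46.1, 38.8 to 45.3, 49.3 to 50.3 and 49.7 to 57.1 CPM in the same order, mostly from CD68, with PTPRC at 0 to 0.103 CPM. The sum of the nuclear-retained RNAs MALAT1 and NEAT1 was 7503 to 7710 CPM in BLANK, 8545 to 8877 in DOC, 10950 to 11130 in AgNPs and 13660 to 14100 in COM. VEGFA and NDRG1 levels followed the same order of groups, and the part of these RNAs in that was not tested. In bulk RNA, fewer cells of a type and less RNA per cell cannot be told apart.

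The genes of the pathway differed by orders of magnitude in level, which can be compared between genes only per transcript length, as FPKM. In BLANK, GAPDH, the oxidising enzyme in the middle of the pathway, was highest at 3188 ± 48.2 FPKM (SD, n = 3). ENO1 (enolase) followed at 1408 ± 30.7 and ALDOA (aldolase A) at 903 ± 8.86. LDHA (lactate dehydrogenase A, 793 ± 16.7) and PKM (pyruvate kinase, 773 ± 8.36) overlapped in their libraries. PGK1 was at 622 ± 17.6, TPI1 at 499 ± 8.25 and PGAM1 at 310 ± 16.5, each below the gene before it without overlap. The upstream steps were lower: HK1 was at 110 ± 1.44 and HK2 at 46.8 ± 1.69, and the 3 phosphofructokinases PFKP, PFKM and PFKL were at 73.3, 52.9 and 37.0 FPKM. Among the hypoxia genes HIF1A (136 ± 6.38) and NDRG1 (108 ± 1.14) were highest, while VEGFA was at 16.5 ± 0.605, EGLN3 at 7.35 ± 0.389 and ANGPTL4 at 4.72 ± 0.323. GAPDH, ALDOA, TPI1, PGK1, PGAM1, ENO1, LDHA and BNIP3 have near-identical copies or pseudogenes, so reads could be split among them and their values are uncertain.

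**Figure D1:**
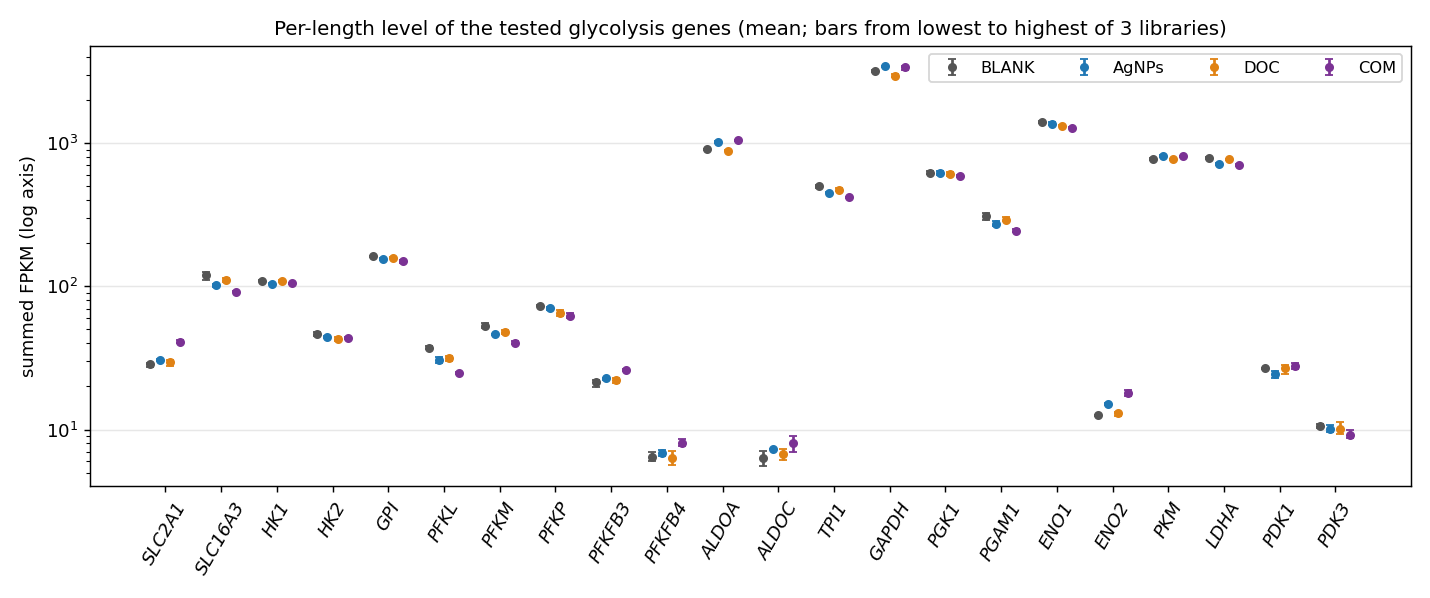
Level per transcript length (summed FPKM, log axis) of the 22 tested glycolysis genes in each group of 3 libraries; points are means and bars run from the lowest to the highest library. GAPDH stands highest at 3188 FPKM in BLANK, and the spread between genes is far larger than any shift between groups.

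AgNPs raised a set of hypoxia-inducible genes while most glycolysis genes that moved went down. Of the 17 hypoxia genes, 10 were higher than in BLANK, 2 were lower and 5 did not pass the test (edgeR quasi-likelihood test, adjusted p below 0.05 over all 19986 genes). Of the 22 tested glycolysis genes, 4 were higher, 10 lower and 8 did not pass. Over all genes tested 14.9% were higher and 16% lower. The median log2 change was 0.20 over the hypoxia genes, -0.06 over the glycolysis genes and 0.01 over all genes. Its median size without sign was 0.20, 0.09 and 0.17. The value over all genes includes thinly counted genes, whose estimates are noisier, and was not matched to the level of the members. Such medians therefore cannot show whether the glycolysis genes shifted less than genes of like level, here, after DOC or in COM. The 3 comparisons with BLANK share the BLANK libraries.

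The members that rose most encode secreted factors. ANGPTL4, a lipoprotein lipase inhibitor that tissues release in hypoxia and fasting (chr19:8364155-8374370), was at 7.87, 7.92 and 8.02 CPM in BLANK, at 21.0, 22.9 and 23.2 after AgNPs, at 8.02, 8.57 and 7.76 after DOC and at 33.3, 30.3 and 31.9 in COM. The AgNPs and COM libraries did not overlap BLANK or each other, while the DOC libraries overlapped BLANK. The AgNPs rise was 2.81-fold (log2 1.49 ± 0.08 SE, n = 3, edgeR adjusted p = 1.91e-17), and the DOC difference was 0.03 ± 0.09 (edgeR adjusted p = 0.845).

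VEGFA, the main growth factor for blood vessels (chr6:43770211-43786487), was at 45.8, 49.2 and 48.2 CPM in BLANK, at 102, 100.2 and 99.5 after AgNPs, at 54.2, 50.9 and 54.3 after DOC and at 149, 130.1 and 138 in COM. Each treated group lay above BLANK in all 3 libraries. The rise was 2.10-fold after AgNPs (log2 1.07 ± 0.05 SE, n = 3, edgeR adjusted p = 1.62e-20) and 1.11-fold after DOC (0.16 ± 0.05, edgeR adjusted p = 0.0189). ADM, the gene of the vasodilator peptide adrenomedullin, rose after both single treatments. It was at 27.6, 26.1 and 29.1 CPM in BLANK, 38.5, 36.5 and 36.5 after AgNPs and 36.2, 34.3 and 35.2 after DOC. Its log2 changes were 0.43 ± 0.06 and 0.35 ± 0.05, and AgNPs minus DOC was 0.08 ± 0.06 (edgeR adjusted p = 0.346), which does not show that they are equal.

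**Figure D2:**
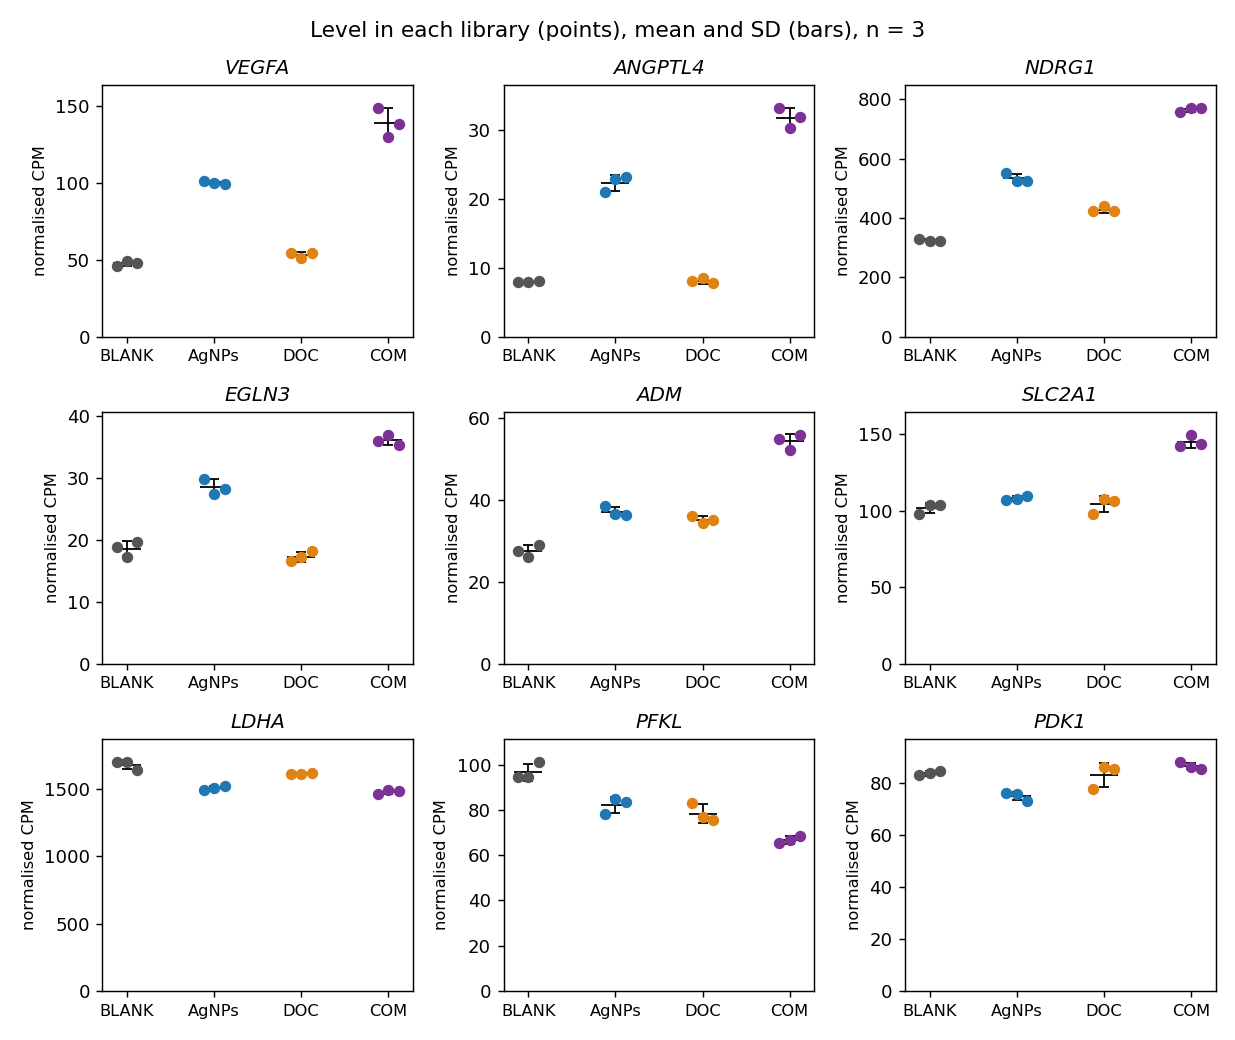
Normalised CPM of 9 members in each library (points) with the mean and SD of each group (bars, n = 3). ANGPTL4 and VEGFA step up from BLANK to AgNPs to COM with DOC near BLANK, SLC2A1 is raised in COM, at 142 to 150 CPM, and PFKL goes down in each treated group.

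Among the genes of oxygen sensing, EGLN3, a prolyl hydroxylase that is itself a strong HIF target, was at 18.8, 17.3 and 19.7 CPM in BLANK and 29.9, 27.5 and 28.1 after AgNPs. That was a rise of 0.62 ± 0.07 (SE, n = 3) on the log2 scale (edgeR adjusted p = 2.17e-09). KDM3A, a histone demethylase that HIF induces, rose by 0.24 ± 0.04 (edgeR adjusted p = 2.38e-05). EGLN1, the prolyl hydroxylase that marks HIF alpha for destruction under normal oxygen, was 0.09 ± 0.04 higher and did not pass (edgeR adjusted p = 0.108). On FPKM its AgNPs libraries, at 19.1 to 19.3, lay above BLANK at 16.5 to 17.2, and DOC lay below at 14.2 to 15.7. The HIF subunits did not follow: HIF1A fell by 0.16 on the log2 scale (SE 0.03, edgeR adjusted p = 4.62e-05), from 469 to 503 CPM in BLANK to 428 to 433 CPM. EPAS1, which encodes HIF-2 alpha, was at -0.08 ± 0.04 and did not pass (edgeR adjusted p = 0.123).

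NDRG1, a hypoxia- and stress-inducible gene linked to differentiation, was at 330.0, 321 and 324 CPM in BLANK, at 552, 524 and 526 after AgNPs, at 422, 441 and 422 after DOC and at 757, 771.5 and 769.7 in COM. No 2 groups overlapped. It rose 1.64-fold after AgNPs (log2 0.72 ± 0.03, edgeR adjusted p = 1.36e-21) and 1.32-fold after DOC (0.40 ± 0.03, edgeR adjusted p = 1.31e-12). BNIP3L, a mitophagy receptor, rose by 0.36 ± 0.05 after AgNPs, whereas its relative BNIP3 was at 0.11 ± 0.05 and did not pass (edgeR adjusted p = 0.0714). P4HA1 and P4HA2, catalytic subunits of the collagen prolyl hydroxylase, rose by 0.14 ± 0.03 and 0.20 ± 0.05, and BHLHE40, a transcriptional repressor of the clock, by 0.15 ± 0.04. CA9, the cell-surface carbonic anhydrase widely used as a hypoxia marker, went the other way, from 46.9 to 47.7 CPM in BLANK to 40.6 to 43.4 CPM (log2 -0.19 ± 0.05, edgeR adjusted p = 0.00645). Its relative CA12 was at -0.05 ± 0.03 and did not pass. ANKRD37 was counted at only 0.306 to 2.55 CPM over all libraries and did not pass after AgNPs (0.53 ± 0.36).

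The glycolysis genes that AgNPs raised were ALDOA (0.16 ± 0.02), ENO2, the enolase best known from neurons (0.25 ± 0.06), GAPDH (0.10 ± 0.02) and PKM (0.07 ± 0.02). The largest falls were in SLC16A3, the lactate exporter MCT4 that HIF is known to induce, and PFKL, the liver type of phosphofructokinase. SLC16A3 (chr17:82217934-82240086) was at 229.5, 262 and 258 CPM in BLANK, 206, 214 and 216 after AgNPs, 238, 233 and 222 after DOC and 192, 195 and 192 in COM. The AgNPs and COM libraries lay below all BLANK libraries, and the DOC libraries overlapped them. It fell by 0.24 after AgNPs (SE 0.04, edgeR adjusted p = 1.99e-05). PFKL (chr21:44300053-44327373) was at 94.4, 94.4 and 101.1 CPM in BLANK, 78.3, 84.9 and 83.6 after AgNPs, 83.1, 76.7 and 75.4 after DOC and 65.2, 66.7 and 68.5 in COM. Every treated library lay below every BLANK library, and the AgNPs fall was 0.23 (SE 0.04, edgeR adjusted p = 4.4e-05).

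LDHA, which makes lactate, fell by 0.15 (SE 0.02, edgeR adjusted p = 2.35e-06), from 1641 to 1699 CPM in BLANK to 1495 to 1522. PDK1, a pyruvate dehydrogenase kinase and a known HIF target, fell by 0.16 (SE 0.04, edgeR adjusted p = 0.00229). The other falls were in HK1, HK2, GPI, PFKM, TPI1 and PGAM1, between 0.08 and 0.19. SLC2A1, the glucose transporter GLUT1 and a known HIF target (chr1:42925353-42958868), was at 98.1, 104 and 103.8 CPM in BLANK and 107, 108 and 109.7 after AgNPs. These groups did not overlap, but the difference of 0.09 ± 0.04 did not pass (edgeR adjusted p = 0.0984). PFKP, PFKFB3, PFKFB4, ALDOC, PGK1, ENO1 and PDK3 also did not pass. Of 21 other settings, the AgNPs call was lost under 11 for HK2, 5 for PKM, 4 for HK1, 3 for GPI, 2 for CA9 and 1 for PDK1.

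**Figure D3:**
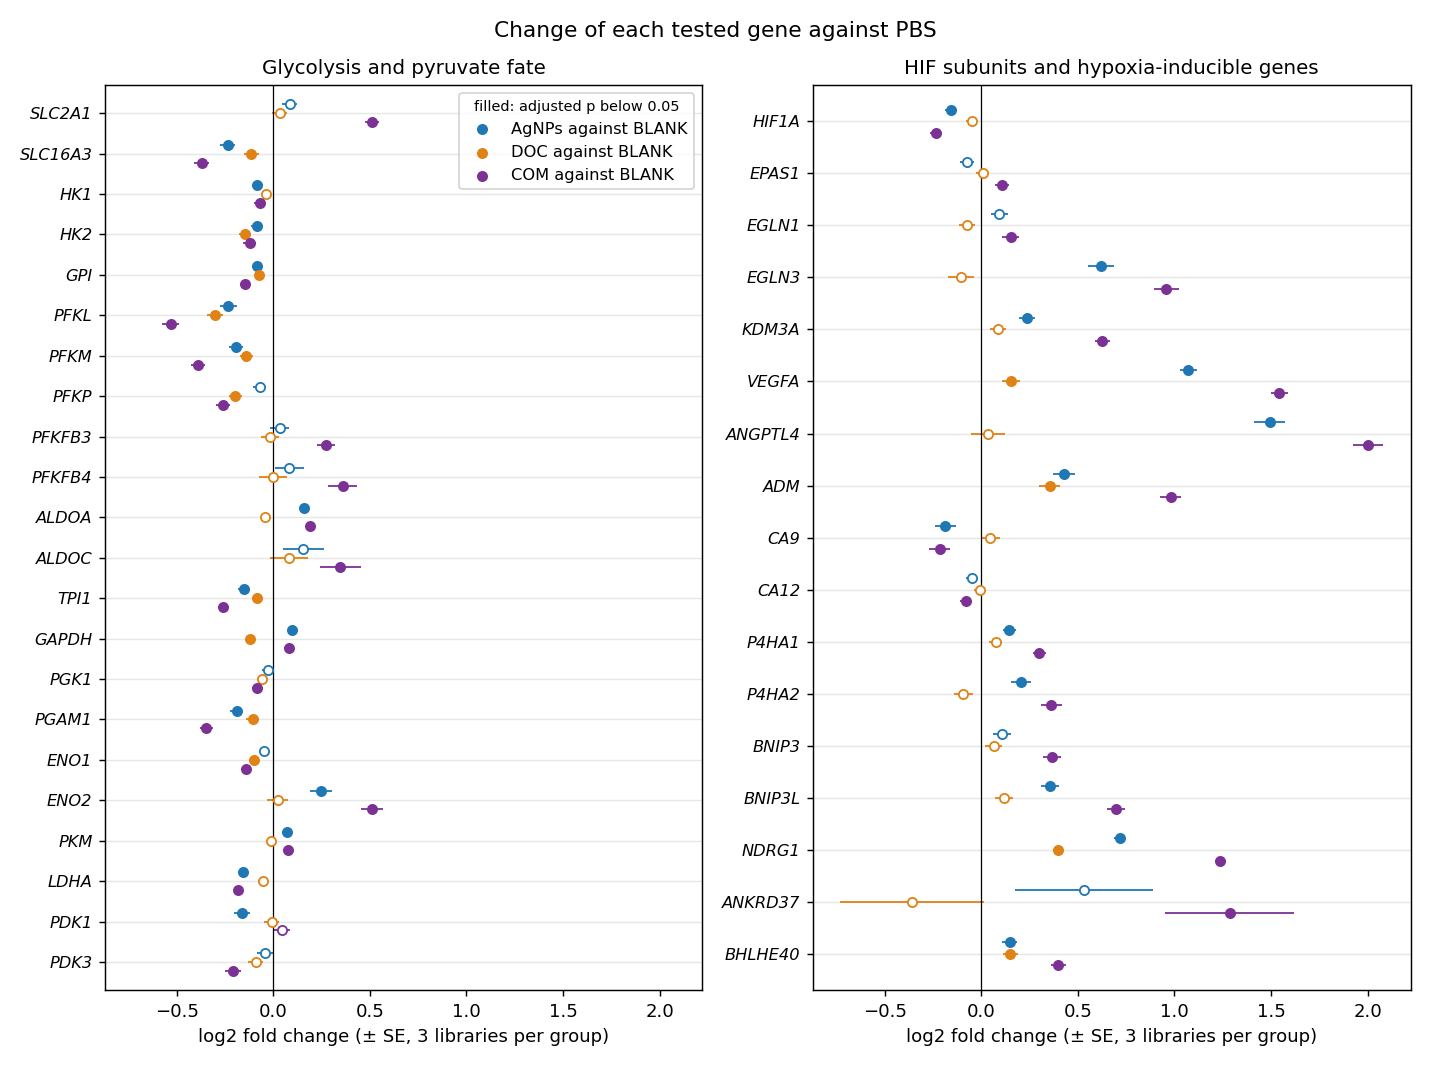
Log2 fold change against BLANK (± SE, 3 libraries per group) of the 39 tested members after AgNPs, DOC and COM; filled points passed an adjusted p of 0.05. The hypoxia genes spread to the right up to ANGPTL4 in COM, at 4.01-fold, while the glycolysis genes stay between -0.53 and 0.51.

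DOC moved fewer of the members and mostly lowered glycolysis genes, by small amounts. The median size of the log2 change was 0.08 over the glycolysis genes and 0.09 over the hypoxia genes, against 0.12 over all genes. Of the 22 glycolysis genes 10 were lower, 0 higher and 12 did not pass, beside 9.81% lower and 7.16% higher over all genes tested. The count of 0 was also 0 at an unadjusted p below 0.05 and with DESeq2 and limma-trend. Of the 17 hypoxia genes 4 were higher, 0 were lower and 13 did not pass. Here too unadjusted edgeR, DESeq2 and limma-trend called 0 lower. For so few genes, both counts of 0 lie near the shares over all genes. The 4 higher hypoxia genes were NDRG1, ADM, VEGFA and BHLHE40 (0.15 ± 0.04, edgeR adjusted p = 0.00568). DESeq2 called 2 of them higher, without VEGFA (adjusted p = 0.109) and BHLHE40 (adjusted p = 0.0556), and limma-trend called 3.

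PFKL had the largest fall after DOC, 0.30 (SE 0.04, edgeR adjusted p = 2.7e-06). PFKP, the platelet type of the same enzyme, fell by 0.20 (SE 0.03), from 177 to 180 CPM in BLANK to 150 to 167, and PFKM, the muscle type, by 0.14 (SE 0.03). All 3 genes of this committed step of glycolysis were therefore lower. HK2, the inducible hexokinase, fell by 0.15 (SE 0.03) and GAPDH by 0.12 (SE 0.02, edgeR adjusted p = 0.000627). SLC16A3, GPI, TPI1, PGAM1 and ENO1 fell by 0.07 to 0.11. These small differences rested on few libraries: 8 members in all passed without DOC replicate 3 and 9 without BLANK replicate 2, against 14, and limma-trend on FPKM called 6.

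Set against each other directly, AgNPs libraries had higher levels than DOC libraries for 8 hypoxia genes and lower levels for 2, and 5 glycolysis genes were higher and 3 lower. Over all genes 13.7% were higher and 11.9% lower. The largest called differences were ANGPTL4 (1.46 ± 0.08), VEGFA (0.92 ± 0.05), EGLN3 (0.72 ± 0.07) and NDRG1 (0.32 ± 0.03). ENO2 (0.22 ± 0.06), GAPDH (0.22 ± 0.02) and ALDOA (0.20 ± 0.02) led the glycolysis genes. CA9 was 0.23 lower (SE 0.05), and HIF1A 0.11 lower (SE 0.03) after AgNPs than after DOC.

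In COM nearly every tested member differed from BLANK, HK1 by as little as 0.07 on the log2 scale (SE 0.03). The shares over all genes, given below, include thinly counted genes, in which such small changes pass less easily. Of the 17 hypoxia genes 14 were higher and 3 lower, with a median log2 change of 0.40. Of the 22 glycolysis genes 8 were higher, 13 lower and 1, PDK1, did not pass (0.05 ± 0.04, edgeR adjusted p = 0.36), with a median of -0.10. Over all genes 25.1% were higher and 24.5% lower, with a median of 0.03 and a median size of 0.27. The median size was 0.40 over the hypoxia genes and 0.23 over the glycolysis genes. The rise was at least 2-fold for 4 members, ANGPTL4 (4.01-fold, SE 0.08 on the log2 scale), VEGFA (2.92-fold, log2 1.54 ± 0.04), NDRG1 (2.36-fold, 1.24 ± 0.03) and the thinly counted ANKRD37 (2.44-fold, 1.29 ± 0.33).

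ADM (0.98 ± 0.06), EGLN3 (0.96 ± 0.07), BNIP3L (0.70 ± 0.05) and KDM3A (0.63 ± 0.04) followed. BHLHE40 rose by 0.40 ± 0.04, BNIP3 by 0.37 ± 0.05, P4HA2 by 0.36 ± 0.05 and P4HA1 by 0.30 ± 0.03. EGLN1 rose by 0.15 ± 0.05 in counts, but on FPKM it was at -0.05 (limma-trend adjusted p = 0.489), so its direction depended on the unit. EPAS1 rose by 0.11 ± 0.04 while HIF1A fell by 0.23 (SE 0.03, edgeR adjusted p = 2.02e-08), to 402 to 412 CPM. The EPAS1 call was lost with DESeq2 (0.08, adjusted p = 0.198) and under 3 of the other settings. The 3 lower hypoxia genes were HIF1A, CA9 (-0.22 ± 0.06) and CA12 (-0.08 ± 0.03), whose call was lost under 7 of 21 other settings.

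Among the glycolysis genes, SLC2A1 rose in COM to 142, 149.6 and 144 CPM, above every library of the other groups, by 0.51 ± 0.04 (edgeR adjusted p = 1e-13). ENO2 rose equally far, by 0.51 ± 0.06, from 29.0 to 30.0 CPM to 39.9 to 44.1, whereas ENO1 fell by 0.14 (SE 0.02). ENO2 still made up only 1.39 ± 0.06% of enolase FPKM in COM, against 0.887 ± 0.03% in BLANK. PFKFB3 and PFKFB4, the bifunctional enzymes that make the activator of phosphofructokinase, rose by 0.27 ± 0.05 and 0.36 ± 0.08. The phosphofructokinases themselves fell, PFKL by 0.53 (SE 0.05), PFKM by 0.39 (SE 0.04) and PFKP by 0.26 (SE 0.04).

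ALDOA (0.19 ± 0.02) and ALDOC (0.35 ± 0.11) rose, as did GAPDH (0.08 ± 0.02) and PKM (0.07 ± 0.02). SLC16A3 fell by 0.37 (SE 0.04), PGAM1 by 0.35 (SE 0.04), TPI1 by 0.26 (SE 0.03) and LDHA by 0.18 (SE 0.02, edgeR adjusted p = 5.53e-08). PDK3, a second pyruvate dehydrogenase kinase, fell by 0.21 (SE 0.04), and HK1, HK2, GPI and PGK1 fell by 0.07 to 0.14. GAPDH, often used as a reference gene, was thus 1.07-fold higher after AgNPs, 1.09-fold lower after DOC and 1.06-fold higher in COM, and its higher call in COM was lost under 4 of 21 other settings. With DESeq2 the COM calls for ALDOC, GAPDH and PKM were all lost, which left 5 higher glycolysis genes.

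Against AgNPs alone, COM was higher in 12 hypoxia genes and 5 glycolysis genes and lower in 8 glycolysis genes. No hypoxia gene was called lower in edgeR as fitted here, while 1 was at an unadjusted p below 0.05, and DESeq2 and limma-trend each called 1. HIF1A, at -0.08 ± 0.03 (edgeR adjusted p = 0.061), passed as lower under 7 of 21 other settings. Over all genes 9.87% were higher and 12% lower. ADM (0.55 ± 0.06), NDRG1 (0.52 ± 0.03), ANGPTL4 (0.51 ± 0.07), VEGFA (0.47 ± 0.04) and SLC2A1 (0.43 ± 0.04) showed the largest called differences. PDK1, which AgNPs had lowered, was 0.21 ± 0.04 higher in COM than after AgNPs (edgeR adjusted p = 0.000636).

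Against DOC alone, COM was higher in 14 hypoxia genes and 7 glycolysis genes and lower in 2 and 8. Over all genes 18.1% were higher and 18.5% lower. ANGPTL4 (1.97 ± 0.08), ANKRD37 (1.64 ± 0.36), VEGFA (1.39 ± 0.04) and EGLN3 (1.06 ± 0.07) each differed by more than 1 on the log2 scale. The 2 lower hypoxia genes were CA9 and HIF1A.

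Whether COM departed from the sum of both single effects was asked with the interaction, the DOC effect in the presence of AgNPs minus the DOC effect without them, on the log2 scale. It was called above 0 for 5 members and below 0 for 0, beside 0.731% and 0.375% over all genes tested. The 0 is near the share over all genes, and it was also found at an unadjusted p below 0.05 and with DESeq2 and limma-trend. The 5 were SLC2A1 (0.39 ± 0.06, edgeR adjusted p = 2.96e-05), KDM3A (0.30 ± 0.06, edgeR adjusted p = 0.00279), VEGFA (0.32 ± 0.06, edgeR adjusted p = 0.00547), EGLN3 (0.44 ± 0.10, edgeR adjusted p = 0.0101) and ANGPTL4 (0.48 ± 0.11, edgeR adjusted p = 0.0273). The estimate was above 0 in 14 of 17 hypoxia genes (median 0.19) and 17 of 22 glycolysis genes (median 0.02), beside 48.6% of all genes (median -0.01).

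SLC2A1 is the plainest case, since neither single treatment moved it past the test and the sum of both was 0.12, against 0.51 in COM. For EGLN3 the sum was 0.51 against 0.96, with DOC alone at -0.10 ± 0.07. NDRG1 lay nearly on the sum (1.12 against 1.24, interaction 0.12 ± 0.04, edgeR adjusted p = 0.163), and PFKL exactly on it to 2 decimals, with an interaction of 0.00 ± 0.06. PFKFB3 (0.26 ± 0.07) and PDK1 (0.22 ± 0.06) missed the threshold with edgeR adjusted p-values of 0.0581 and 0.06. PFKFB3 passed under 6 of 20 other settings and PDK1 under 1. The SLC2A1 call held under all 20 other settings tried. With limma-trend on FPKM it was the only 1 left, ANGPTL4 held in 10 of 20, and after thinning to equal depth VEGFA was at 0.24 (edgeR adjusted p = 0.133).

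**Figure D4:**
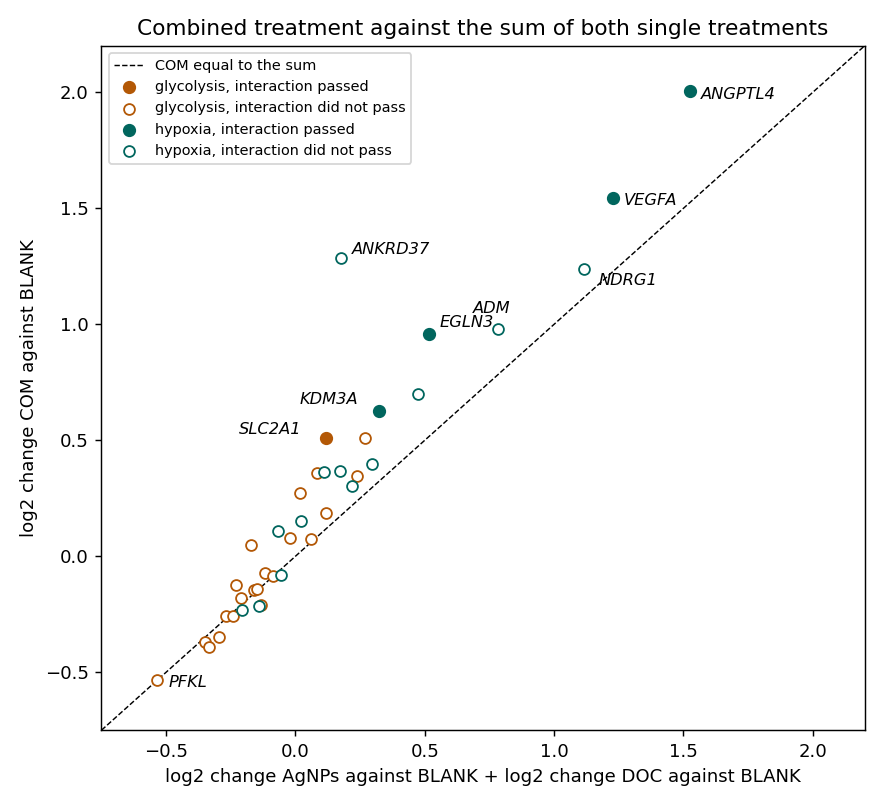
Log2 change of the tested members in COM against BLANK (vertical) and the sum of the log2 changes after AgNPs and after DOC (horizontal); the dashed line marks equality, and filled points passed the interaction test. SLC2A1, KDM3A, EGLN3, VEGFA and ANGPTL4 are filled and lie above the line, while PFKL lies on it.

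The glycolysis genes together made up 1.78 ± 0.02% of all FPKM in BLANK, 1.76 ± 0.04% after AgNPs, 1.70 ± 0.02% after DOC and 1.73 ± 0.04% in COM (SD, n = 3). The DOC and COM libraries all lay below the BLANK libraries, and the AgNPs libraries overlapped them. Exact two-sided permutation tests gave p = 0.7, 0.1 and 0.1, where 0.1 is the smallest that 3 against 3 libraries allow. As a share of counts, COM at 1.57 to 1.61% overlapped BLANK at 1.60 to 1.63%, while DOC stayed below at 1.54 to 1.58%. GAPDH, the highest member, weighs most in this share, and its own value is uncertain. It was at 3188 FPKM in BLANK, 3436 after AgNPs, 2961 after DOC and 3382 in COM, so the share can hide falls of lower members. PKM is spliced into an M1 or an M2 form, the second typical of tumours. The M1 transcripts took 5.57 ± 0.23% of PKM counts in BLANK, 6.26 ± 0.45% after AgNPs, 6.01 ± 0.41% after DOC and 5.89 ± 0.53% in COM, with overlapping groups (exact permutation p = 0.2, 0.2 and 0.4). The M2 transcript NM_002654 took 41.1 ± 3.23% in BLANK. The remaining counts lay on other PKM transcripts, so the counts outside M1 do not measure M2. Of the counts on M1 and NM_002654 together, M1 took 10.6 to 13.0% in the BLANK libraries. It took 12.4 to 13.2% after AgNPs, 11.2 to 12.4% after DOC and 11.1 to 13.4% in COM.

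Other genes of the pathway were followed as lists, also chosen with earlier results of these data known. Of 26 other tested HIF targets 11 were higher and 4 lower after AgNPs, 3 higher and 2 lower after DOC, and 13 higher and 3 lower in COM. Over all genes tested these shares were 14.9% and 16% after AgNPs, 7.16% and 9.81% after DOC and 25.1% and 24.5% in COM. The DOC counts and the lower count after AgNPs therefore lie near the background. WSB1, a ubiquitin ligase subunit, rose by 0.51 ± 0.04, 0.19 ± 0.04 and 0.96 ± 0.04 after AgNPs, DOC and COM. In the same order MIR210HG, the host of a hypoxia-induced microRNA, rose by 0.54 ± 0.15, 0.63 ± 0.14 and 1.06 ± 0.14. Its level was low, at 3.10 to 3.59 CPM in BLANK and 6.88 to 7.03 in COM, and was counted only on transcripts outside RefSeq. AK4, a mitochondrial adenylate kinase, fell by 0.35 after AgNPs (SE 0.03).

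Of 13 tested regulators of HIF, 6 were higher and 2 lower after AgNPs, 1 higher and 2 lower after DOC, and 6 higher and 3 lower in COM. The counts after DOC and the lower counts after AgNPs and in COM are near the shares over all genes. The coactivators CREBBP and EP300 rose by 0.31 ± 0.03 and 0.30 ± 0.03 in COM, and CITED2, which competes with HIF for them, by 0.36 ± 0.05. ELOB and CUL2, parts of the VHL ubiquitin ligase, fell by 0.22 (SE 0.05) and 0.14 (SE 0.03) after AgNPs.

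Among 19 other tested genes of glucose metabolism, 4 were higher and 7 lower after AgNPs, 2 lower and 17 not passing after DOC, and 6 higher and 6 lower in COM. The counts after DOC and in COM and the higher count after AgNPs are near the shares over all genes. PCK2, the mitochondrial PEP carboxykinase and a known target of the amino acid stress factor ATF4, rose by 1.25 ± 0.06 after AgNPs and 1.44 ± 0.06 in COM. HKDC1, a further hexokinase, was at 0.0886 to 0.442 CPM in BLANK, 2.98 to 3.22 after AgNPs, 0.154 to 0.204 after DOC and 3.71 to 4.92 in COM. It passed after AgNPs (edgeR adjusted p = 1.06e-11) and in COM (8.35e-14), with so few counts in BLANK that no fold is given. PDHA1 and DLAT, subunits of pyruvate dehydrogenase, fell by 0.23 (SE 0.04) and 0.27 (SE 0.04) after AgNPs, and LDHB, the other main lactate dehydrogenase gene, fell by 0.30 in COM (SE 0.03).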

How the data were processed

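RNA of 12 PC3 libraries was analysed from 1 deposited table. Per the submitters' processing notes the tools were HISAT2, Bowtie2 2.2.5 and RSEM and the build GRCh38, with no roles given. Deposited read counts are expected counts per transcript; the deposited expression columns were taken as FPKM from their values. 10 columns were not used here. Expected counts of linear rows (177700 of 221796) were summed per gene and rounded. Counts were tested with edgeR 4.0.16: TMM, filterByExpr, 1 robust quasi-likelihood fit over all libraries without replicate block, two-sided, Benjamini-Hochberg over 19986 genes, called at an adjusted p below 0.05. Errors of log2 changes are standard errors. Linear counts ran from 10996446 to 22769479, and 3 counts are 0.132 to 0.273 CPM. Alternatives used DESeq2 1.42.0, limma 3.58.1 on log2(FPKM + 1), other filters and scaling, the replicate block, RefSeq rows, left-out libraries and, chosen after seeing the data, thinning. The fit was tested on simulated data. All members are described; of each other list up to 4 genes per comparison with the smallest adjusted p could be named, and all markers. Members and lists were chosen with earlier results of these data known. The share of counts on RefSeq rows differed by group, from 83.7 to 86.9%. Some genes of the other lists are not reported here.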

Additional observations from a re-analysis of the deposited data

Results flagged for a closer look

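For 5 members the DOC effect with AgNPs differed from the DOC effect without them in the test of that difference itself (edgeR interaction term). The differences, as log2 values, were 0.39 for SLC2A1, 0.44 for EGLN3, 0.30 for KDM3A, 0.32 for VEGFA and 0.48 for ANGPTL4. DOC alone left SLC2A1 at 0.03 ± 0.04 and, on top of AgNPs, at 0.43 ± 0.04 (SE, n = 3). The EGLN3 estimates had opposite signs, -0.10 ± 0.07 alone and 0.34 ± 0.07 with AgNPs. KDM3A went from 0.09 ± 0.04 to 0.39 ± 0.04, VEGFA from 0.16 ± 0.05 to 0.47 ± 0.04 and ANGPTL4 from 0.03 ± 0.09 to 0.51 ± 0.07. Depth and the nuclear-retained RNAs moved with the groups, and their part in these differences was not tested, apart from thinning all libraries to equal depth. After thinning SLC2A1, EGLN3, KDM3A and ANGPTL4 still passed, VEGFA was at 0.24 and did not (edgeR adjusted p = 0.133), and PFKFB3 passed as well (edgeR adjusted p = 0.0152).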

How the results depend on the processing

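Of 157 called results over the tested members and 7 comparisons, 112 kept their call under every setting tried, 20 of 26 for AgNPs, 5 of 14 for DOC, 29 of 38 for COM and 1 of 5 for the interaction (SLC2A1). The DOC comparison was the least steady: its 3391 genes became 1061 with limma-trend on log2(FPKM + 1), 2259 with DESeq2 and 2204 to 4027 with 1 library left out, and its 14 members became 6 with limma-trend and 8 to 17 with 1 library left out. The interaction's 221 genes became 54 with limma-trend, 145 with DESeq2 and 115 to 269 with 1 library left out, and its 5 members became 1 with limma-trend and 3 to 6 with 1 library left out, the 3 without AgNPs replicate 2. The glycolytic share of AgNPs minus BLANK, -0.012 percentage points, turned to 0.011 as a share of counts and ran from -0.034 to 0.0055 with 1 library left out. EGLN1 turned on FPKM with limma-trend, to -0.047 for COM minus BLANK and -0.23 for COM minus AgNPs. The cause was not tested in any of these.

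Same replicate numbers did not pair the libraries, with correlations of -0.11 to 0.049 beside -0.079 to 0.095 for other numbers. With the replicate block 25 members were called for AgNPs, 12 for DOC, 38 for COM and 6 for the interaction.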

Other observations

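PFKFB3 differed in transcript use between groups, a pattern chosen after its values were seen and given with no test. Its level passed against BLANK only in COM, and was at 0.03 ± 0.05 after AgNPs and -0.02 ± 0.05 after DOC (log2, SE). NM_004566 took 29.8 ± 3.40% of PFKFB3 counts in BLANK (SD, n = 3), 41.6 ± 3.31% after AgNPs, 38.1 ± 5.58% after DOC and 57.8 ± 4.68% in COM. NM_001145443 took 46.0 ± 2.95%, 28.6 ± 4.32%, 39.7 ± 2.29% and 17.7 ± 3.03%. After DOC the NM_004566 shares, at 31.7 to 42.2%, overlapped BLANK at 26.6 to 33.4%, while the NM_001145443 shares lay below BLANK. SLC16A3 counts on NM_004207 took 81.2 ± 0.70% in BLANK, 77.1 ± 1.40% after AgNPs, 78.1 ± 1.24% after DOC and 71.0 ± 0.92% in COM. These shares are estimates from short reads that transcripts share.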
